A study of Rattus norvegicus with 16 samples.

Results

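The RefSeq non-coding RNA probes of this array are those whose target name starts with NR_ (a curated non-coding transcript) or XR_ (one predicted by computer from the genome). Of 24684 non-control probes, 1729 had such a target, and 1100 of them were members: a probe was kept where the scanner software called at least 50% of its spots clearly brighter than background (well above background) on 4 or more of 16 arrays. In all, 17883 probes were tested. The rule used brightness only and no comparison between groups. Hippocampal RNA came from male Sprague-Dawley rats in 4 groups of 4 arrays. Controls were free of stress, and the other groups, labelled depression-susceptible, anxiety-susceptible and insusceptible, had been through 8 weeks of chronic mild stress, a series of small changing stressors. The sources used here give neither age, nor how the stressed rats were sorted, nor whether each array holds a separate rat. After depletion of ribosomal RNA, random primers copied the rest along whole transcripts, so that a transcript without a poly(A) tail can be labelled too. The study's title names networks of long non-coding RNAs and messenger RNAs in the stressed hippocampus.

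Long non-coding RNAs are transcripts that do not serve as templates for protein, and many are expressed in neurons. Some act on chromatin or on the stability of other RNAs, some carry small nucleolar RNAs in their introns, and for most predicted ones no function is known. Pseudogene transcripts, which resemble a protein-coding parent gene, and RefSeq's non-coding isoforms of protein-coding genes also carry the prefix NR_.

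Of the members, 1079 were XR_ predictions and 21 were NR_ entries. 0 of the 1702 XR_ targets on the array matched the gene table used for names, so they are given by accession. A symbol was found for 15 NR_ members: 6 long non-coding RNAs (2810025M15Rikl, Gas5, H19, Abhd11-as1, Chchd4l1 and RT1-T24-2), 4 transcribed pseudogenes (Gapdh-ps1, Hmgb1-ps2, Tnxa-ps1 and Dzip1-ps1), 4 non-coding isoforms of protein-coding genes (Atp2a2, Ngrn, Dnlz and Alg3) and Rpph1. The other 6 NR_ members had no symbol. Of the 629 probes left out, 538 were well above background on 0 arrays, among them the probe for a non-coding isoform of Oprm1, the mu opioid receptor gene. The telomerase RNA Terc was above background on 1 array and was also left out. At the edge of the rule, 20 members were seen on exactly 4 arrays and 22 probes outside on 3. On all 16 arrays 885 members were seen, and 0 were saturated. Most members, 1097, had 3 spots on the array and 3 had 10.

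RefSeq promoter windows of assembly GRCr8 (250 bases before to 50 after the annotated start) were at hand for 9 of the 15 members with a symbol. They are shown for 2810025M15Rikl, the symbol-bearing member that fell in every comparison with control, and Gas5, the best known of the members, whose values follow. Capitals mark exact matches on either strand to the letters TATAAA of a TATA box, the letters CCAAT of a CCAAT box, the letters GGGCGG of a GC box, or the letters TGACGTCA of a cyclic AMP response element. These letters do not overlap one another in the windows shown. The 2810025M15Rikl window lies at chr13:72102797-72103096 on the plus strand and the Gas5 window at chr13:75836713-75837012 on the plus strand.
2810025M15Rikl: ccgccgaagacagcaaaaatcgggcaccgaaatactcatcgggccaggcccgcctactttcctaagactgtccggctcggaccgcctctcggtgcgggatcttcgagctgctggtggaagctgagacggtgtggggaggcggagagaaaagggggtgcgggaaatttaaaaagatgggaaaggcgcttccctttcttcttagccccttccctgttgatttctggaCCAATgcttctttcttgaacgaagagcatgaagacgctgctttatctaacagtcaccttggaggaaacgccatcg
Gas5: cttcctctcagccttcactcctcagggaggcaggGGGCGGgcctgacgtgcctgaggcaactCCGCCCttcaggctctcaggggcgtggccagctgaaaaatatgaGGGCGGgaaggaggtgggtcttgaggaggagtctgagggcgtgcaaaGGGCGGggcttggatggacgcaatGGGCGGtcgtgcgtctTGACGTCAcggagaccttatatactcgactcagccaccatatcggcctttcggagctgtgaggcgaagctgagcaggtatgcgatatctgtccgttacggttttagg
The 2810025M15Rikl window held 1 CCAAT box and no other of these motifs, while the Gas5 window held 5 GC boxes and 1 cyclic AMP response element. Among 33469 promoter windows of the same length, 37.5% held a CCAAT box, 33.1% a GC box, 14.2% a TATA box and 1.83% a cyclic AMP response element. These are letter matches and say nothing of binding.

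Arrays with the same scan time in their file headers were taken to lie on 1 slide, which gave 4 slides. Slides 1 and 2 each held 2 control and 2 depression-susceptible arrays and were scanned on day 1. The 4 anxiety-susceptible arrays made up slide 3 and the 4 insusceptible ones slide 4, and these were scanned on day 2. For the last 2 groups, slide, scan day and group therefore cannot be told apart. The 75th percentile of the signal was 2997 to 3382 on day 1 and 1077 to 1248 on day 2. Non-coding probes were well above background in 52.4% to 65.9% of cases on an array, against 72.7% to 83.1% for messenger RNA probes. Over 335 members with 3 spots, arrays of 1 group on 1 slide differed by an SD of 0.054 log2, no more than the 0.059 that repeated spots give for a 3-spot mean. Such arrays were averaged, which leaves 6 samples, 2 for each group of slides 1 and 2 and 1 for each of the others. The tests have 2 residual degrees of freedom. Errors and p-values therefore measure the spread between slides of the day 1 groups, assumed to hold for the others, and not the spread between rats.

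Cell markers moved with the groups, and their part in the differences below was not tested. Summed over the 15 tested of 16 listed choroid plexus markers, the linear signal relative to the 75th percentile was 162 and 184 in the control samples, 41.0 and 45.5 in the depression-susceptible samples, 148 in the anxiety-susceptible sample and 22.7 in the insusceptible one. Of these 15 markers, 15, 14 and 15 fell against control in the depression-susceptible, anxiety-susceptible and insusceptible groups. Their median differences were -3.69, -1.77 and -3.86 log2. A linear sum weighs the brightest markers most. The 7 tested of 8 red blood cell markers summed to 1.37 and 1.40 in control, 24.8 and 25.5 in depression-susceptible samples, 0.982 in the anxiety-susceptible and 2.58 in the insusceptible sample. Markers of neurons, the defining cells of the tissue, summed to 74.4 and 88.2, then 54.1 and 62.1, then 45.3 and 49.5 in the same order, over 5 of 6 listed genes, of which 1, 4 and 3 fell and 0, 0 and 1 rose. Of the red blood cell markers 5, 0 and 4 rose and 1, 2 and 1 fell. In bulk tissue, fewer cells of a type and less RNA per cell cannot be told apart.

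Levels below are log2 processed signals minus the log2 75th percentile of the array. A member is said to have risen or fallen where limma's adjusted p, over all tested probes, was under 0.05. Against control, 48 members rose and 22 fell in depression-susceptible rats, beside 6.77% of all tested probes called higher and 3.15% called lower. In anxiety-susceptible rats 188 rose and 89 fell, beside 13.5% and 16.6% of all tested probes. In insusceptible rats 186 rose and 82 fell, beside 16% and 14.3%. The shares of members that rose were 4.36%, 17.1% and 16.9%, and those that fell 2%, 8.09% and 7.45%. In these fits on 6 samples the share that fell was thus below the background in each comparison. With slide as a block this turned round in depression-susceptible rats, where 354 members passed lower, a share above the 21% of all tested probes. Members that rose were above the background share in the anxiety-susceptible group, close to it in the insusceptible group and below it in the depression-susceptible group.

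**Figure D1:**
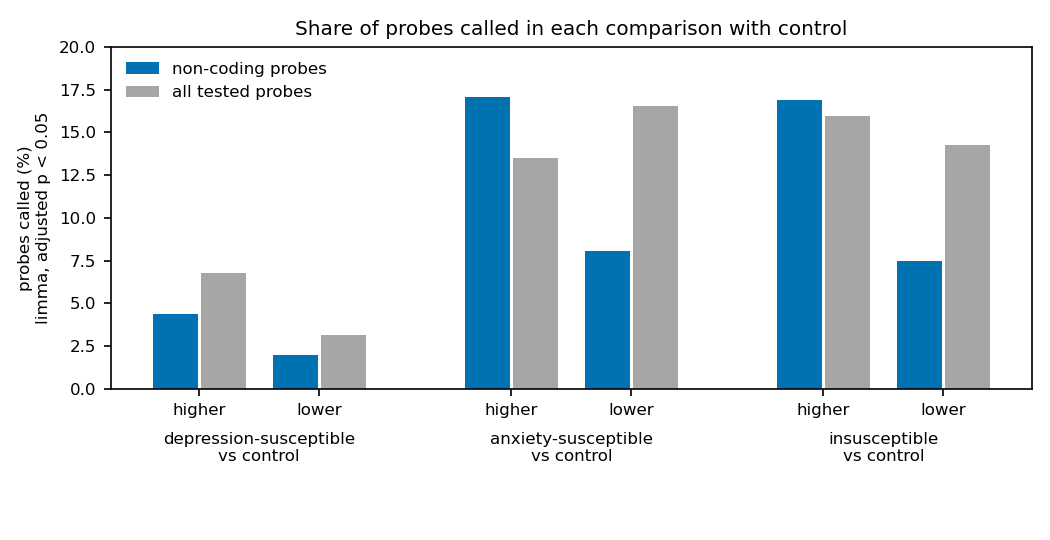
Share of probes called higher or lower (y axis, percent of probes tested) in each comparison with control, for the 1100 non-coding probes (blue) and all tested probes (grey). In these fits on 6 samples, lower calls were fewer among non-coding probes: 8.09% against 16.6% in the anxiety-susceptible and 7.45% against 14.3% in the insusceptible group.

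The split moved with the scaling. Under quantile normalization 44 members were called higher and 17 lower in depression-susceptible rats (4% and 1.55%), beside 6.56% and 3.58% of all tested probes. In anxiety-susceptible rats these were 134 and 114 (12.2% and 10.4%), beside 12.6% and 17.9%, and in insusceptible rats 123 and 81 (11.2% and 7.36%), beside 13% and 15.7%. The share of members called lower thus stayed below the background, while the share called higher was no longer above it in the anxiety-susceptible group. With arrays centred on their messenger RNA probes, a setting added after seeing the data, the depression-susceptible split was 41 and 8, beside 5.8% and 1.99% of all tested probes. The median difference over members was -0.12, 0.31 and 0.25 log2 in depression-susceptible, anxiety-susceptible and insusceptible rats, beside -0.06, -0.11 and -0.06 over messenger RNA probes. Under quantile normalization the members' medians were -0.13, 0.22 and 0.09. The shift varied with brightness: in anxiety-susceptible rats the median was 0.63 in the dimmest 275 members and -0.28 in the brightest 275, and in insusceptible rats 0.63 and -0.37. Messenger RNA probes in the same brightness ranges had medians of 0.20 and -0.30 in anxiety-susceptible and 0.37 and -0.28 in insusceptible rats. Quantile normalization brought the dimmest 275 members to 0.27 and 0.15.

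Among the long non-coding RNAs with a symbol, 2810025M15Rikl, a transcript named after a mouse cDNA clone, fell in all stressed groups. Its level was -0.11 and -0.01 in the control samples of slides 1 and 2, -0.96 and -0.87 in the depression-susceptible samples of the same slides, -0.70 in the anxiety-susceptible sample and -0.96 in the insusceptible sample. Every stressed sample lay below both control samples. The fall was 0.86 log2 in depression-susceptible rats (1.81-fold, SE 0.08, limma adjusted p = 0.0152), and on slides 1 and 2 taken alone the difference was -0.85 and -0.87. It was -0.64 in anxiety-susceptible (SE 0.10, limma adjusted p = 0.0245) and -0.90 in insusceptible rats (SE 0.10, limma adjusted p = 0.0153). Under quantile normalization the differences were -0.81, -0.66 and -0.95, all past the threshold. With any 1 control sample left out the 3 limma adjusted p lay between 0.0556 and 0.0926, and without either depression-susceptible sample they were 0.0953 to 0.106, 0.0622 and 0.0431. In the gene table its nearest protein-coding neighbours are Rasal2 and Cryzl2, and neither had a tested messenger RNA probe.

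Gas5, growth arrest-specific 5, is the host of several small nucleolar RNAs and is known to accumulate when translation or growth stops. Its level was 0.11 and 0.45 in the control samples, 0.37 and 0.68 in the depression-susceptible, 1.096 in the anxiety-susceptible and 1.14 in the insusceptible sample. The day 2 samples lay above all day 1 samples, while control and depression-susceptible samples overlapped. The differences from control were 0.25 (SE 0.18), 0.81 (SE 0.22) and 0.86 (SE 0.22), with limma adjusted p of 0.418, 0.0613 and 0.0555. The last pair passed under quantile normalization, at 0.86 (adjusted p 0.0370) and 0.90 (0.0365), and also under a normexp background correction (0.0392 and 0.0373). Within slides, the depression-susceptible samples were 0.26 and 0.23 above control, past the threshold with slide as a block (limma adjusted p = 0.0379). Zbtb37, a zinc finger gene next to Gas5, rose by 1.03, 1.56 and 1.32 log2 in the same order of groups.

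H19, the imprinted transcript expressed from the maternal chromosome beside Igf2, did not pass in any comparison. Its level was -4.06 and -4.10 in control, -4.08 and -4.12 in depression-susceptible samples, -3.76 in the anxiety-susceptible and -3.73 in the insusceptible sample. The differences were -0.02 (SE 0.07), 0.32 (SE 0.09) and 0.35 (SE 0.09), with limma adjusted p of 0.886, 0.0646 and 0.0557, and the last pair shrank to 0.02 and -0.01 under quantile normalization but passed under normexp (0.59 and 0.65). Its neighbour Igf2, an insulin-like growth factor gene with strong expression in choroid plexus and meninges, fell by 1.81, 1.38 and 2.40 log2 with the choroid plexus markers given above, and Mrpl23 on the other side did not pass.

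**Figure D2:**
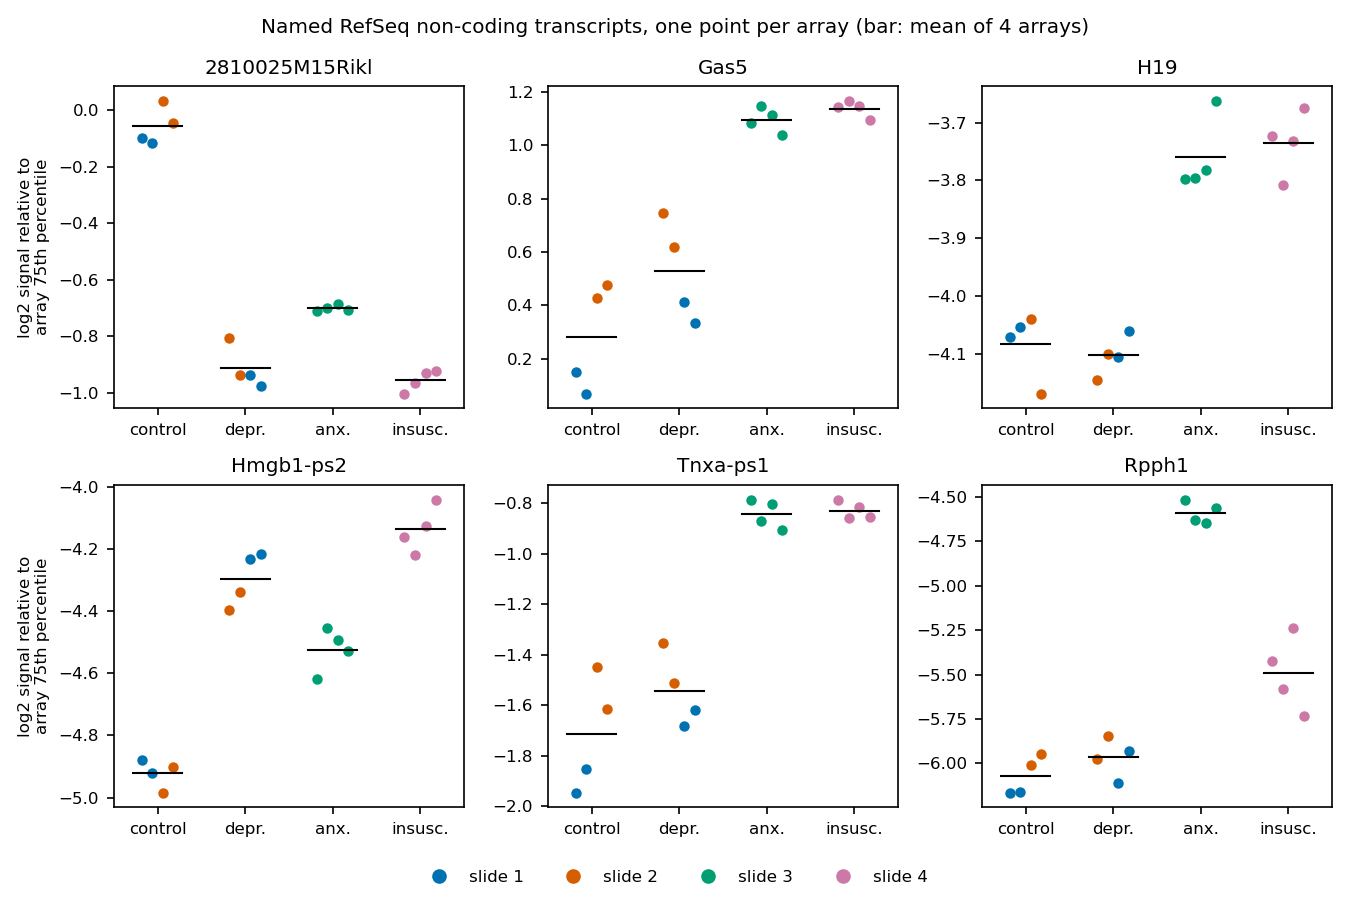
Levels (y axis, log2 signal relative to the array's 75th percentile, scale differing between panels) of 6 NR_ members on each of the 16 arrays, grouped by condition on the x axis and coloured by slide; bars are means of 4 arrays. 2810025M15Rikl is lower in every stressed array than in every control array, whereas Gas5, H19 and Tnxa-ps1 separate the arrays of slides 3 and 4 from those of slides 1 and 2.

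Of the other long non-coding RNAs, RT1-T24-2, transcribed within the rat major histocompatibility complex, rose in insusceptible rats. Its level was -6.25 and -6.75 in control, -6.22 and -6.04 in depression-susceptible samples, -5.56 in the anxiety-susceptible and -5.20 in the insusceptible sample. These are dim levels, well above background on 4 control, 4 depression-susceptible, 3 anxiety-susceptible and 3 insusceptible arrays. The insusceptible rise was 1.30 log2 (SE 0.25, limma adjusted p = 0.0320), but it was 0.80 with an adjusted p of 0.0633 under quantile normalization. The anxiety-susceptible difference, 0.94 (limma adjusted p = 0.0577), passed under normexp (1.04, 0.00370). Without the control sample of slide 2 the insusceptible rise was 1.05 log2 and did not pass, nor did it pass without either depression-susceptible sample. Messenger RNA probes of 2 overlapping genes went opposite ways in insusceptible rats. RT1-T24-4 differed by -0.69 and did not pass, and RT1-T24-3 rose by 0.58. Abhd11-as1, antisense to the hydrolase gene Abhd11, and Chchd4l1, related to a mitochondrial import gene, did not pass in any comparison with control, with differences between -0.20 and 0.24. The direction of Abhd11-as1 in insusceptible rats turned with the processing, since it passed lower under quantile normalization (-0.52, limma adjusted p = 0.0240) and higher under normexp (0.51, 0.0168). Under normexp it also passed higher in anxiety-susceptible rats (0.58, limma adjusted p = 0.0125), as did Chchd4l1 in both of these groups (0.70 and 0.79, with 0.00498 and 0.00355).

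Rpph1 is listed in the gene table under the symbol of the RNase P RNA but with the gene type of the RNase MRP RNA, so which of these processing RNAs the probe measures is not settled. Its level was -6.16 and -5.98 in control, -6.02 and -5.91 in depression-susceptible, -4.59 in the anxiety-susceptible and -5.49 in the insusceptible sample. The anxiety-susceptible sample stood above all others. The rise there was 1.48 log2 (2.79-fold, SE 0.13, limma adjusted p = 0.0106) and 1.12 under quantile normalization (0.0125). In insusceptible rats, where only 1 array was well above background, the rise was 0.58 (SE 0.13, limma adjusted p = 0.0426), but 0.08 under quantile normalization (0.626), and no leave-one-out fit kept the call (0.0726 to 0.124). The difference between these groups, 0.90 log2, had a limma adjusted p of 0.203. Under normexp both rises passed, at 1.27 log2 in anxiety-susceptible and 0.99 in insusceptible rats, and the difference between these groups was 0.28. The size of that difference thus moved with the background correction. Parp2, a DNA repair enzyme gene that overlaps Rpph1 in the gene table, did not pass in any of the comparisons with control, with differences of 0.20, 0.23 and 0.15. Of the neighbours on either side, Ccnb1ip1 rose by 0.63, 0.77 and 0.87 log2 in the same order, from dim levels of -7.22 and -7.19 in control. Tep1 did not pass.

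Among the pseudogene transcripts, Hmgb1-ps2 had levels of -4.90 and -4.94 in control, -4.23 and -4.37 in depression-susceptible samples, -4.52 in the anxiety-susceptible and -4.14 in the insusceptible sample. All stressed samples lay above both control samples. It rose by 0.62 log2 in depression-susceptible rats (SE 0.09, limma adjusted p = 0.0320) and by 0.78 in insusceptible rats (SE 0.11, 0.0192). Both calls were lost under quantile normalization, at 0.46 (limma adjusted p = 0.0796) and 0.36 (0.108). Under normexp the first was lost too (0.37, limma adjusted p = 0.0626), while the anxiety-susceptible difference, 0.40 on the processed signal (0.0624), passed (0.79, 0.00459). Leaving out any 1 sample ended the first call (0.132 to 0.161), and leaving out either control sample the second (0.0664 and 0.0701). The messenger RNA of Hmgb1, which encodes a chromatin protein and is the parent gene, differed by -0.05 and 0.12 and did not pass. A probe may also bind RNA of a near-identical copy, so pseudogene values are uncertain.

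Tnxa-ps1, a pseudogene of the tenascin X family, had levels of -1.90 and -1.53 in control, -1.65 and -1.43 in depression-susceptible samples, -0.84 in the anxiety-susceptible and -0.83 in the insusceptible sample. It rose by 0.87 (SE 0.21, limma adjusted p = 0.0474) and 0.89 log2 (SE 0.21, 0.0459) in the day 2 groups, and these stood under quantile normalization at 0.76 and 0.76. They did not pass without either control sample (0.0566 to 0.0978) or either depression-susceptible sample (0.0719 to 0.0741). Its neighbour C4a, a complement gene, rose by 0.45 in depression-susceptible and 0.74 in insusceptible rats and did not pass at 0.32 in anxiety-susceptible rats. Gapdh-ps1 and Dzip1-ps1 did not pass, with differences between -0.27 and 0.74. Under normexp, Gapdh-ps1 passed higher in anxiety-susceptible rats (0.81, limma adjusted p = 0.0208) and Dzip1-ps1 in anxiety-susceptible and insusceptible rats (0.89 and 0.95, with 0.00377 and 0.00306). Gapdh itself, the glycolytic enzyme, had differences of -0.23, -0.42 and -0.50 and did not pass either.

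Of the non-coding isoforms, that of Ngrn, a gene named for neurite outgrowth, fell by 0.60 log2 in insusceptible rats (SE 0.13, limma adjusted p = 0.0431). Its level was 3.61 and 3.42 in control, 3.49 and 3.36 in depression-susceptible samples, 3.001 in the anxiety-susceptible and 2.92 in the insusceptible sample. The messenger RNA probe of Ngrn fell by 0.63 there. No probe positions are given, so the 2 probes may bind sequence shared by both isoforms and cannot be taken as separate measures. In anxiety-susceptible rats the non-coding isoform differed by -0.52 (limma adjusted p = 0.0569), which passed under normexp (0.0282). In insusceptible rats it differed by -0.17 under quantile normalization (limma adjusted p = 0.207), and no leave-one-out fit kept the call (0.0720 to 0.124). The isoforms of Atp2a2, the SERCA calcium pump, of Alg3, a mannosyltransferase, and of Dnlz, a mitochondrial chaperone partner, did not pass in any comparison with control on 6 samples. With slide as a block, Atp2a2 (-0.56 and -0.50 on slides 1 and 2, limma adjusted p = 0.0134) and Dnlz (-0.22 and -0.31, 0.0388) passed lower in depression-susceptible rats. For Atp2a2 the differences were -0.53, -0.42 and -0.52, beside -0.74, -0.42 and -0.57 for its messenger RNA probe, with the same limit. Among the NR_ members without a symbol, NR_002149 rose by 0.82 in anxiety-susceptible (limma adjusted p = 0.0244) and 1.25 log2 in insusceptible rats (0.0136), of which only the second stood under quantile normalization (0.79, 0.0225), and neither without either control sample (0.0504 to 0.0835). In depression-susceptible rats NR_002149 was 0.29 and 0.36 above control on slides 1 and 2, which passed only with slide as a block (limma adjusted p = 0.0264). NR_002597 fell by 0.45 in insusceptible rats (0.0424) and was at -0.06 under quantile normalization (0.694), and its call was lost in every leave-one-out fit (0.0948 to 0.148). The remaining 4 did not pass against control, with slide as a block or without.

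The depression-susceptible and control arrays shared slides, so this comparison can be read on each slide alone. Over the 1092 members with a value in all 6 samples, 923 had a difference of the same sign on both slides, and the 2 differences correlated at r = 0.88. The slides share no array, and the points share the array design, so this is a description. With slide as a block, which leaves 1 residual degree of freedom, 143 members passed higher and 354 lower, beside 17.4% and 21% of all tested probes. The share of members was then below the background for higher calls and above it for lower calls, unlike the fit on 6 samples. Leaving out 1 sample lowered the count of 70 calls each time, but no share over all tested probes was taken for these fits. The median difference over members was 0.04 log2 without the control sample of slide 1 and -0.21 without that of slide 2. It was -0.20 without the depression-susceptible sample of slide 1 and 0.04 without that of slide 2.

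**Figure D3:**
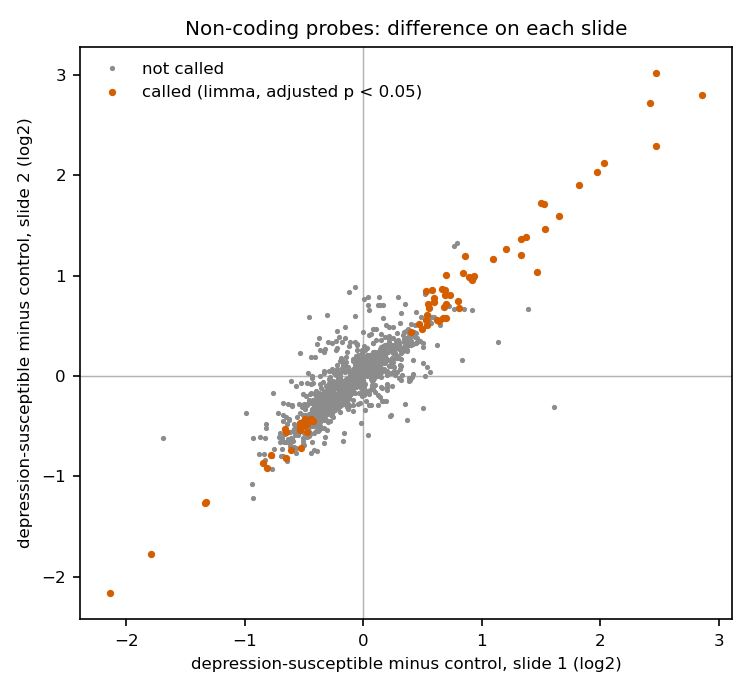
Depression-susceptible minus control difference (log2) of each non-coding probe on slide 1 (x axis) and slide 2 (y axis); orange points are the 70 members called in the 6-sample fit. The points follow a common line (r = 0.88). Every called member has the same sign on both slides, which the call itself favours, because the difference between slides enters its error.

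Among members seen on all 16 arrays, the largest rise in depression-susceptible rats was that of XR_007122. Its level was -5.45 and -5.23 in control against -2.98 and -2.94 in depression-susceptible samples, with -2.89 in the anxiety-susceptible and -2.73 in the insusceptible sample. The rise was 2.38 log2 (5.21-fold, SE 0.10, limma adjusted p = 0.00360), and 2.47 and 2.30 on slides 1 and 2. The next was XR_008690, at -5.81 and -5.73 in control and -3.84 and -3.70 in depression-susceptible samples, a rise of 2.00 (SE 0.09, 0.00377). Both also rose in the other groups, by 2.45 and 2.61 for XR_007122 and 2.70 and 2.49 for XR_008690, with the same controls in each comparison. Under normexp the depression-susceptible rises were 1.63 and 1.13, smaller but past the threshold.

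Under the same condition, the largest falls in depression-susceptible rats were of XR_007575 and XR_007360. XR_007575 was at -3.38 and -3.50 in control and -4.72 and -4.77 in depression-susceptible samples, a fall of 1.30 log2 (SE 0.08, limma adjusted p = 0.00619), and also fell by 0.63 and 1.34 in anxiety-susceptible and insusceptible rats, of which neither passed under normexp (-0.04 and -0.31). XR_007360 was at 1.70 and 1.58 in control, 0.37 and 0.32 in depression-susceptible samples, 0.61 in the anxiety-susceptible and 0.48 in the insusceptible sample, and fell by 1.30 (SE 0.08, 0.00618), 1.03 and 1.17. Its stressed samples all lay below both control samples, and it kept its size under normexp (-1.28, -1.01 and -1.11). Without the depression-susceptible sample of slide 2 both falls had an adjusted p of 0.0537. The 5 largest rises lay between 1.62 and 2.38 and the 5 largest falls between -1.30 and -0.78.

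For some members control arrays gave no signal well above background, and only a bound can be given. XR_006299 was seen on 0 of 4 control arrays and on all arrays of each stressed group. Against the dimmest well-above-background signal of each control array, it was at least 5.41-fold higher in depression-susceptible (limma adjusted p = 0.00899), 7.29-fold in anxiety-susceptible (0.00985) and 5.22-fold in insusceptible rats (0.0123). XR_008917 was seen on 0 of 4 control and 0 of 4 insusceptible arrays and was at least 2.93-fold higher in depression-susceptible (0.00243) and 4.52-fold in anxiety-susceptible rats (0.00605). Without either depression-susceptible sample the depression-susceptible rise of XR_006299 had an adjusted p of 0.0510 or 0.0519. The bounds hold for the processed signal. All p-values in this paragraph belong to the measured differences, such as 2.74 log2 for XR_006299 in depression-susceptible rats, and not to the bounds. The members here were picked for being seen in 1 group and not in the other and for passing the threshold. Their p-values therefore add no support. In the other direction, XR_006033 and XR_006018 were seen on 4 of 4 control arrays but on no anxiety-susceptible array. XR_006033 was at least 2.72-fold higher in control there (0.00632). For XR_006018 the 2.14-fold (0.0177) is the measured difference and not a bound. In insusceptible rats XR_006033 and XR_005530 were at least 1.52-fold and 1.45-fold higher in control (0.0173 and 0.0235). All 4 of these falls turned positive under normexp, at 0.16 and 0.50 and at 0.47 and 0.57 log2, so their direction rests on the background correction. Without either control sample the 2 insusceptible falls were lost (0.0542 to 0.0782), and without the control sample of slide 2 that of XR_006018 in anxiety-susceptible rats (0.0563).

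In anxiety-susceptible rats the largest rise among members seen on all 16 arrays was that of XR_006774. Its level was -3.95 and -4.26 in control, -2.62 and -3.06 in depression-susceptible samples, -0.55 in the anxiety-susceptible and -1.16 in the insusceptible sample. The groups did not overlap. It rose by 3.55 log2 (11.7-fold, SE 0.25, limma adjusted p = 0.00796) in anxiety-susceptible, by 2.95 (0.0107) in insusceptible and by 1.27 (0.0431) in depression-susceptible rats, the last not past the threshold under quantile normalization (0.0713). The largest fall was that of XR_005441, from 1.87 and 1.71 in control to -0.02 in the anxiety-susceptible and 0.35 in the insusceptible sample, with 1.21 and 1.15 in depression-susceptible samples. It fell by 1.81 (SE 0.11, 0.00706), 1.44 (0.00967) and 0.61 (0.0382) in anxiety-susceptible, insusceptible and depression-susceptible rats. The 5 largest rises in anxiety-susceptible rats ranged from 2.18 to 3.55 and the 5 largest falls from -1.81 to -1.23. The count of 277 calls was lower in each leave-one-out fit, but no share over all tested probes was taken for these. Without the control sample of slide 1 or 2 the median difference over members was 0.38 and 0.22 log2.

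In insusceptible rats XR_006774 and XR_007122 led the rises among members seen on all 16 arrays. XR_007793 followed, with levels of -4.09 and -4.09 in control, -2.88 and -2.83 in depression-susceptible samples, -3.40 in the anxiety-susceptible and -1.51 in the insusceptible sample. It rose by 2.59 log2 (6-fold, SE 0.09, limma adjusted p = 0.00463), against 1.23 and 0.69 in depression-susceptible and anxiety-susceptible rats. The largest fall was that of XR_008889, from 6.41 and 6.04 in control to 4.63 in the insusceptible sample, by 1.59 (SE 0.29, 0.0302). It was at 5.84 and 5.32 in depression-susceptible and 5.09 in anxiety-susceptible samples, which did not pass. Without the control sample of slide 1 or 2 the insusceptible difference of XR_008889 was -1.41 and -1.77 log2 and did not pass. The count of 268 calls was lower in each leave-one-out fit, but no share over all tested probes was taken for these.

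**Figure D4:**
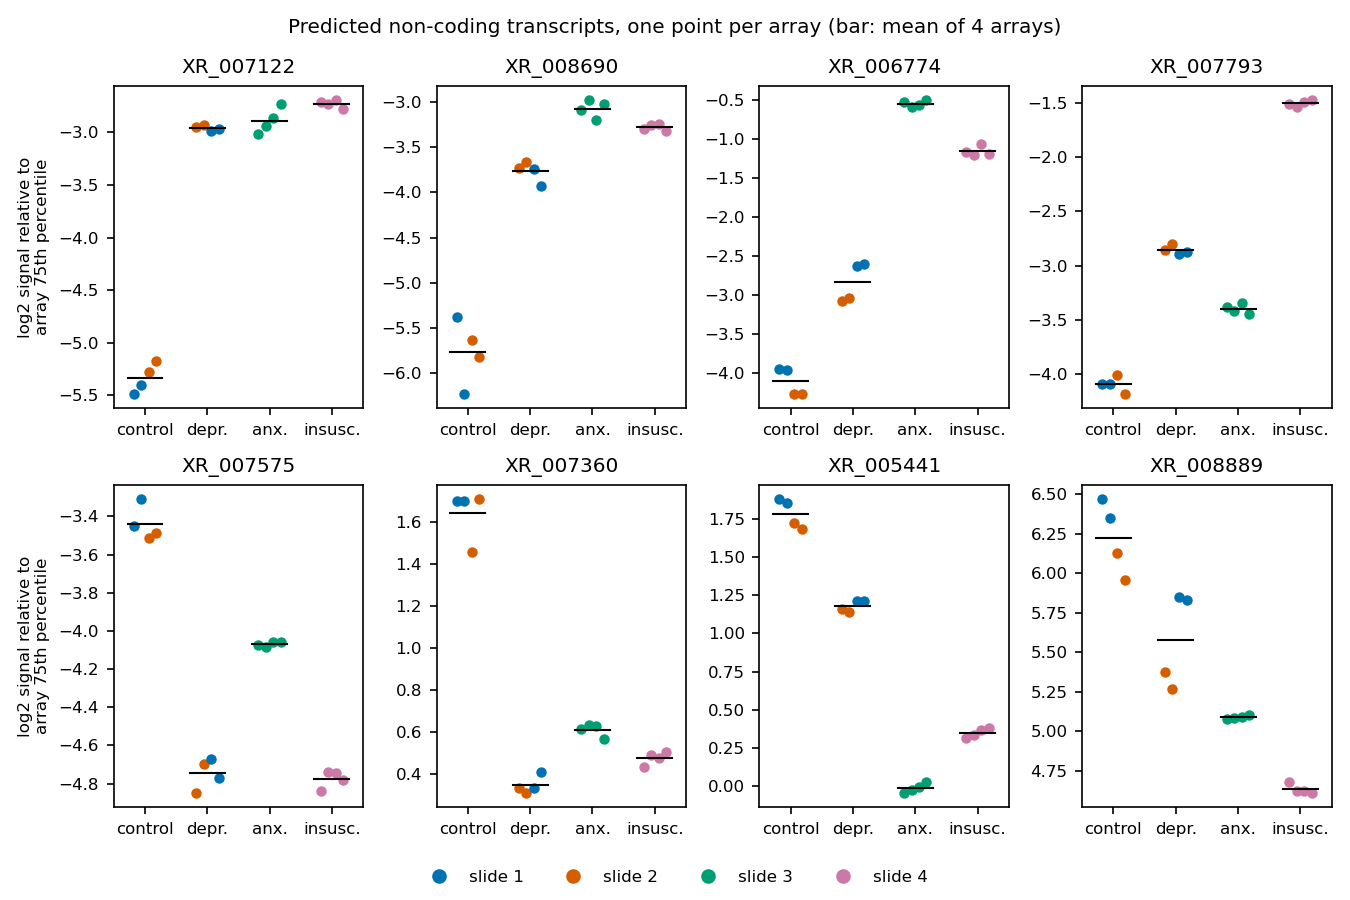
Levels (y axis, log2 signal relative to the array's 75th percentile, scale differing between panels) of 8 predicted transcripts on each array, grouped by condition and coloured by slide; bars are means of 4 arrays. XR_007122 and XR_008690 are higher and XR_007360 lower in all stressed arrays, while XR_007793 is highest in the insusceptible arrays, at -1.51 on average.

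Between stressed groups, limma called 0 of 1100 members for depression-susceptible against insusceptible rats, beside 0.084% of all tested probes, and 0 for anxiety-susceptible against insusceptible rats, beside 0.0783%. At an unadjusted p under 0.05 there were 314 and 103 members (28.5% and 9.36%), beside 30.5% and 11.1% of all tested probes. Under quantile normalization 45 and 4 members passed, beside 4.96% and 0.358% of all tested probes. XR_007793 came closest between anxiety-susceptible and insusceptible rats, at -1.89 log2 (SE 0.10, limma adjusted p = 0.0516), and passed under quantile normalization at -1.91 (0.0345). Each of these groups is 1 sample, and slide and group cannot be told apart.

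The spread between slides was large in the non-coding probes. In control arrays the median absolute difference between slides 1 and 2 was 0.25 log2 over members and 0.12 over messenger RNA probes. A difference above 1 log2 was found for 168 of 1092 members (15.4%) and 141 of 12318 messenger RNA probes (1.14%). In depression-susceptible arrays these were 135 members (12.4%) and 93 messenger RNA probes (0.755%). The gap was present at each brightness. In control, 16.4%, 20.4%, 17.9% and 6.93% of members exceeded 1 log2 in 4 brightness classes from dim to bright, against 5.13%, 1.09%, 0.441% and 0.119% of messenger RNA probes in the same ranges. These are counts of probes that share arrays, and no test was made of them.

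The difference had a direction. In 123 members, all XR_ predictions, slide 1 exceeded slide 2 by more than 1 log2 in both control and depression-susceptible arrays, whereas 1 member was the other way round. The 123 were picked for their slide difference, whose medians were 1.57 in control and 1.41 in depression-susceptible arrays. The arrays of slides 3 and 4 had no part in that choice. All 123 were higher in the anxiety-susceptible sample on slide 3 than in the insusceptible sample on slide 4, by a median of 1.19 log2 (range 0.11 to 2.57), beside 493 of the other 977 members and a median of 0.003. Across all 1092 members the control slide difference correlated at r = 0.78 with the anxiety-susceptible minus insusceptible difference, which shares no array with it, and at r = 0.14 across messenger RNA probes. The points share the array design and brightness, and the values are given as a description. Under quantile normalization they were 0.77 and 0.13.

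**Figure D5:**
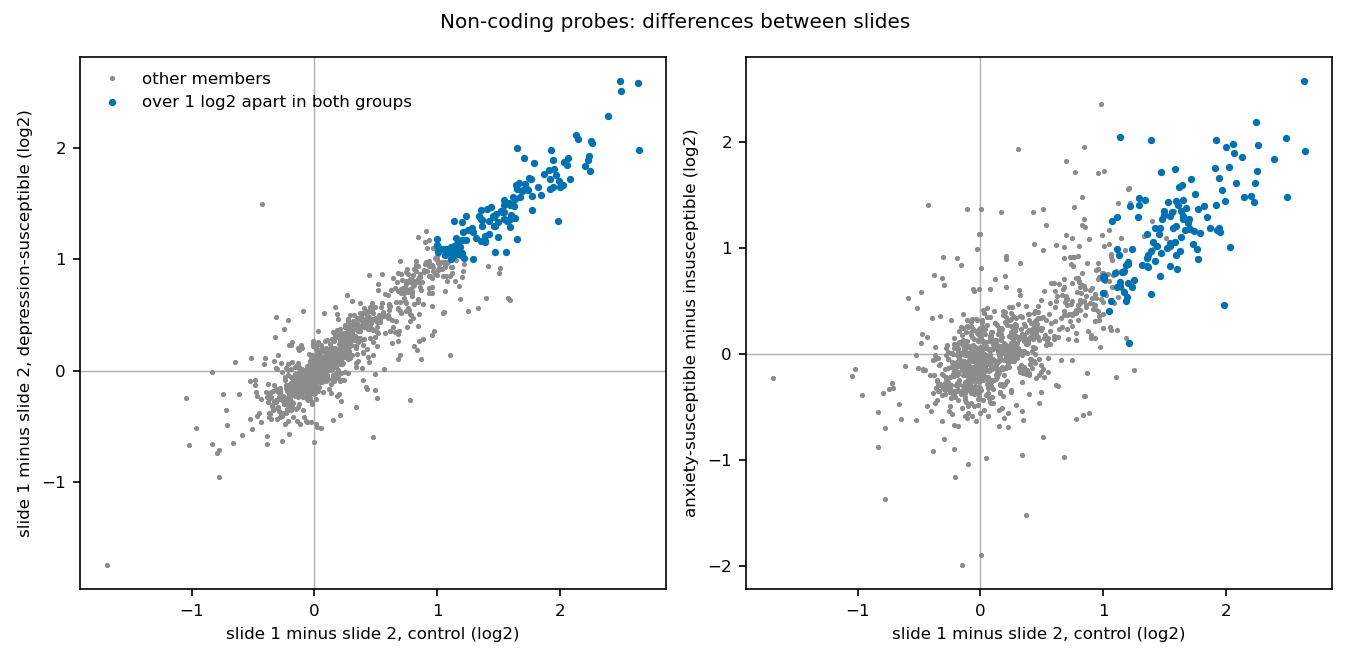
Slide 1 minus slide 2 difference in control arrays (x axis, log2) of each non-coding probe against the same difference in depression-susceptible arrays (left) and against the anxiety-susceptible minus insusceptible difference (right). The 123 members over 1 log2 apart in both groups (blue) are all above 0 in the right panel, with a median of 1.19.

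The median level of the 123 members was -1.89 and -1.86 on the control arrays of slide 1 and -3.43 and -3.45 on those of slide 2. Depression-susceptible arrays stood at -2.17 and -2.40 on slide 1 and -3.71 and -3.78 on slide 2. The anxiety-susceptible arrays lay between -0.94 and -0.82 and the insusceptible arrays between -2.42 and -2.28. Which control slide was taken therefore set the sign for the insusceptible group: its median difference over these members was -0.45 from the control sample of slide 1 and 1.05 from that of slide 2. For the anxiety-susceptible group it was 0.64 and 2.29. Within a slide the depression-susceptible samples differed from control by a median of -0.35 on slide 1 and -0.22 on slide 2. None of the 123 was called in any of the 5 comparisons by limma on 6 samples, in which their slide difference enters the error.

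3 members, chosen after their values were seen, show the pattern. XR_006679 was at -5.41 and -5.75 in control and depression-susceptible samples of slide 1, -8.05 and -8.34 on slide 2, -3.92 in the anxiety-susceptible and -6.49 in the insusceptible sample, and was well above background on 0 of the insusceptible arrays. XR_005931 was at -2.61 and -2.85 on slide 1, -3.79 and -3.96 on slide 2, -0.83 in the anxiety-susceptible and -1.67 in the insusceptible sample. XR_005575, which missed the limit of 1 log2 in control, was at 1.33 and 1.02 on slide 1, 0.34 and 0.003 on slide 2, 1.88 in the anxiety-susceptible and -0.47 in the insusceptible sample. In each, slide 1 was above slide 2 and slide 3 above slide 4. None passed a comparison with control, and slide and group cannot be told apart for slides 3 and 4.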

How the data were processed

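Per the file headers, each deposited array file holds intensity values from Agilent Feature Extraction 11.0.1.1 (protocol GE1_1100_Jul11), whose processed signal is background-subtracted, with no scaling across arrays. A deposited table of log2 values, of which no source used here says how it was made, correlated at 0.956 or more with the processed signal of the same array on the log2 scale and served as an alternative. The headers name build rn4, and no probe positions are given. Control spots and flagged spots were left out, spots of a probe averaged, and the log2 processed signal lowered by its array's 75th percentile. Arrays of 1 group on 1 slide were averaged (6 samples). limma 3.58.1 in R 4.3.3 fitted all 17883 tested probes, with Benjamini-Hochberg adjustment over them, after a check on simulated data. Members lacking a sample's value (8) were fitted on the rest; 2 of the 5 largest anxiety-susceptible rises (XR_005569, XR_006772) had no slide 1 value.

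Names and promoters came from RefSeq tables of assembly GRCr8. Members and lists were chosen with earlier results of these data known. By the rule, named members were the largest rises and falls among members seen on all 16 arrays that passed with the same sign under quantile normalization, the largest bounds where 1 group was never above background, and all members of a list of known non-coding genes (Gas5, H19 and Rpph1 here). Of unnamed accessions usually 2 each way are printed. The number of arrays limits the precision. Summaries and plots were made with pandas 2.3.3 and matplotlib 3.10.9 in Python 3.11.15. Alternatives were quantile and normexp processing, other filters, every array as its own sample, the deposited values, a replicate or slide block, and leaving out samples. Among further marker lists, 4 astrocyte, 4 oligodendrocyte, 4 microglia, 3 endothelium, 3 ependyma and 6 dentate and CA neuron genes were checked, with 0, 0, 2, 0, 0 and 1 tested genes lower and 0 higher in depression-susceptible rats, 0, 0, 3, 0, 0 and 1 lower and 0 higher in anxiety-susceptible rats, and 0, 0, 2, 0, 1 and 2 lower and 0, 0, 0, 1, 0 and 0 higher in insusceptible rats.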

Additional observations from a re-analysis of the deposited data

Results flagged for a closer look

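Among 180 groups of 4 arrays of the named members, 6 held 1 array far from the other 3 (by the gap to the nearest array over the range); chance flags about 1 in 20 groups. Dzip1-ps1 was at -5.91 on anxiety-susceptible array 4, above -6.08 to -6.06 on the others, and H19 at -3.66 on the same array, above -3.80 to -3.78. NR_002597 was at 2.67 on insusceptible array 1, below 2.80 to 2.82. XR_007360 was at 1.46 on control array 3, below 1.70 to 1.71. XR_006299 was at -4.26 on anxiety-susceptible array 2, above -4.38 to -4.36, and XR_006018 at -6.63 on insusceptible array 4, above -6.96 to -6.90.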

How the results depend on the processing

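Counts of member calls, out of 70, 277, 268, 0 and 0 in the order depression-susceptible, anxiety-susceptible and insusceptible against control, then depression-susceptible and anxiety-susceptible against insusceptible, moved with the setting. With every array as its own sample they were 438, 816, 744, 672 and 473, and with 16 arrays and the replicate block 407, 787, 711, 638 and 374. The replicate numbers share only a number: same-numbered arrays' deviations correlated at a median of -0.05 (24 pairs, -0.88 to 0.22). With the slide as a block the first count was 497. Without a filter they were 31, 136, 558, 373 and 0. Under normexp with an offset of 50, on median spot signals because mean signals were not among the columns used, and with the background of 13 spots above 500 set to the array median, anxiety-susceptible, insusceptible and depression-susceptible against insusceptible gave 629, 613 and 497. It moved the median difference from control over all tested probes from -0.05 to 0.15 log2 in anxiety-susceptible and from 0.01 to 0.19 in insusceptible rats. Against insusceptible, quantile normalization gave 45 and 4, the deposited values gave 20 and 2, and only members seen on all 16 arrays 0 and 1. Leaving out 1 control or depression-susceptible sample gave 13 to 19, 41 to 129 and 42 to 125 calls. The cause of these shifts was not tested, except that fewer samples or probes enter by construction. For most of these settings no share over all tested probes was taken. Those counts describe the members alone and do not set them against the rest of the array. Both settings added after seeing the data (centring on messenger RNA probes, members seen on every array of both groups) stayed within 1.5 times in total calls. The split moved more. Against control, centring took the lower calls from 22, 89 and 82 to 8, 53 and 45. It took the higher calls from 48, 188 and 186 to 41, 161 and 152. Of 52 named calls, 7 were lost under quantile normalization, 11 in the deposited values and 22 to 24 without 1 control sample; under normexp 2 were lost and 4 turned sign: XR_006033 (0.16) and XR_006018 (0.50) in anxiety-susceptible, XR_006033 (0.47) and XR_005530 (0.57) in insusceptible rats.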
